A study of Mus musculus with 6 samples.

Results

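The E2F transcription factors and the retinoblastoma family of pocket proteins were described in primary mouse keratinocytes with and without constitutively active NFATc1. The 10 genes were E2f1, E2f2, E2f3, E2f4, E2f5, E2f7, E2f8, Rb1, Rbl1 and Rbl2, taken by symbol from the array rows annotated with exactly 1 gene. All 10 were measured, out of 19935 genes in all. The cells were wild-type CD1 keratinocytes grown in low-calcium medium, and both groups were infected with a retrovirus. In 3 cultures it encoded caNFATc1, a human NFATc1 whose autoinhibitory domain is mutated so that it is always active, and in 3 vector control cultures it was the empty MSCV vector. Total RNA was read on 6 single-colour arrays.

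E2F factors bind the promoters of genes needed for DNA replication and cell division. Pocket proteins, which are pRB (Rb1), p107 (Rbl1) and p130 (Rbl2), hold E2F factors in check until cyclin-dependent kinases phosphorylate them. E2F1, E2F2 and E2F3 are known mainly as activators that pRB restrains, E2F4 and E2F5 as repressors that work with p107 and p130, and E2F7 and E2F8 as atypical repressors that bind DNA without a DP partner and without a pocket protein. In the epidermis this circuit is known for its part in the exit of basal keratinocytes from the cell cycle.

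Each deposited log2 value is set against the median of its row across the 6 arrays. Such values give differences between arrays but no levels, so the members cannot be ranked by abundance, and the presence of the keratinocyte markers cannot be checked by level. The series design calls the replicates biological, without saying how the cultures were separated. Arrays with the same replicate number deviated from their group means together, with correlations across genes of 0.71, 0.61 and 0.57 for replicates 1, 2 and 3, against -0.60 to 0.18 for unmatched arrays. The difference was fitted as caNFATc1 minus vector control with the replicate number as a block, because the members' rule pairs arrays by that number. The fit used limma, Benjamini-Hochberg adjusted over all 19935 genes, with a threshold of 0.05, and every member is also given by pair. The SE and intervals given come from limma's moderated variance, which borrows from all genes, and not from a gene's own pairs alone. With no moderation the SE of E2f8, E2f7 and E2f1 was 0.30, 0.23 and 0.26, in place of 0.19, 0.15 and 0.16. The SE with no moderation was smaller than the moderated SE for E2f2, E2f5 and Rbl2 and larger for the remaining members. Replicate 1 stood apart from the others. Xist, the RNA of the inactive X chromosome, lay at least 5.97 log2 units lower on both of its arrays than on any other array, and Eif2s3y, a gene of the Y chromosome, at least 2.99 higher.

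Several members of the family are known to be E2F target genes themselves, and the sequence around their start sites was therefore searched for the E2F consensus. RefSeq windows (GRCm38.p6) from 250 bases before to 50 bases after the start were at hand for 7 members, E2f1, E2f2, E2f3, E2f7, E2f8, Rbl1 and Rbl2. The words searched on both strands were TTTCCCGC, TTTGGCGC, TTTCGCGC and TTTGCCGC. Of the outermost window of each of 27025 genes, 2.33% held such a word. The outermost windows of Rbl1, E2f7, E2f3 and E2f2 each held 1. Each word is shown here in capitals with its flanks, 5′ to 3′ on the gene's own strand. They are shown because these are the searched windows that held the family's binding word. E2f4, E2f5 and Rb1 had no window and were not searched.

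Rbl1, word at chr2:157204545-157204552 on the minus strand, bases -18 to -11 from the start: agaaggcgatTTTCGCGCgctttgtcgc

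E2f7, word at chr10:110745241-110745248 on the plus strand, bases -198 to -191, in the reverse orientation: ccgcgtccccGCGGGAAAcgctcccgcg

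E2f3, word at chr13:29986067-29986074 on the minus strand, bases -11 to -4, in the reverse orientation: tgaaaagccgGCGGGAAAtctgagtttc

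E2f2, word at chr4:136172313-136172320 on the plus strand, bases 40 to 47 after the start: cggcatatagTTTGGCGCtaa

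A second element, the CHR (TTTGAA), through which MuvB complexes act on genes of mitosis, was found in the outermost windows of E2f8, E2f3 and Rbl2, in 18.2% of the outermost windows of all genes, and in a second E2f2 window whose start lies 8508 bases inside the gene. In E2f3 it lay at bases -23 to -18, upstream of the E2F word and without overlap. In E2f8 it lay at bases -20 to -15, at chr7:48881611-48881616, in the reverse orientation. The E2f8 window belongs to a start site 477 bases inside the annotated gene, and that of E2f1, which held neither word, to one 466 bases inside.

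E2f8 around its CHR, minus strand: gcgggttaatTTCAAAtcgggggctg

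The 250 bases before the start of Rbl1, chr2:157204535-157204784 on the minus strand, are printed in full because Rbl1 had the lowest p of the family, with the E2F word in capitals.

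Rbl1: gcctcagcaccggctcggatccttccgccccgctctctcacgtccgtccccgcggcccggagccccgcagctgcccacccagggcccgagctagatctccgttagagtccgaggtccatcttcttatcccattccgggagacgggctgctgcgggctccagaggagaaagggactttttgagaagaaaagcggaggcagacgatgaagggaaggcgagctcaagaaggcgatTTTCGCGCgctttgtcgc

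Of the 10 members, Rbl1 and E2f5 fell in caNFATc1 cells and none rose. By the same rule 6.11% of all genes were called, 2.38% lower and 3.73% higher. E2f4, E2f7 and E2f8 had negative differences in all 3 pairs, with adjusted p from 0.0519 to 0.0766. The 5 members with an unadjusted p under 0.05 were these and the 2 called, and 21.5% of all genes were under it. E2f1, E2f2, E2f3, Rb1 and Rbl2 were not. The members' median difference was -0.27, against -0.01 over all genes, and 8 of the 10 were negative, against 52.6% of all genes. Of the members 6 were negative in all 3 pairs, and so were 21.3% of all genes. Without the block limma called 0 members, with 4 at an unadjusted p under 0.05 (E2f4, E2f5, E2f7 and E2f8), while it called 0.216% of all genes and had 12.7% of them under that p. In 4 members (E2f4, E2f5, E2f7 and E2f8) every caNFATc1 array lay below every vector control array, which was so for 9.09% of all genes. In bulk RNA, fewer cycling cells and less RNA per cell cannot be told apart.

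**Figure D1:**
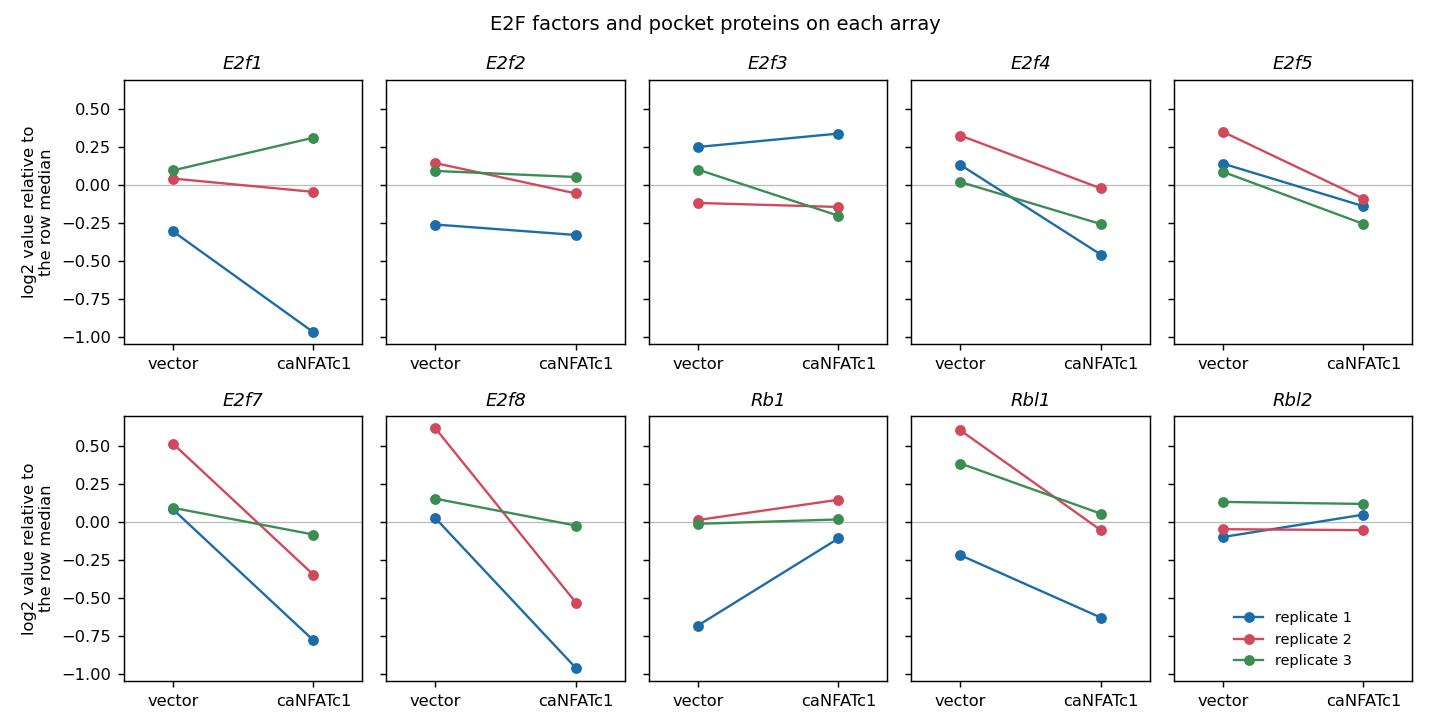
Log2 value of each member relative to its row median on the 6 arrays, with a line joining the vector control and the caNFATc1 array of the same replicate number. The lines of E2f2, E2f4, E2f5, E2f7, E2f8 and Rbl1 slope down in all 3 replicates, while those of E2f1, E2f3 and Rbl2 run in both directions.

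None of the activators passed the test. E2f1, a driver of entry into S phase, read -0.30, 0.04 and 0.10 in vector control replicates 1, 2 and 3 and -0.97, -0.04 and 0.31 in caNFATc1 replicates 1, 2 and 3. The caNFATc1 arrays of E2f1 spanned 1.28 log2 units, the widest range of any member within a group, and held both its highest and its lowest value. The pairs differed by -0.66, -0.09 and 0.22, and the mean difference was -0.18 ± 0.16 (SE, n = 3 pairs, limma adjusted p = 0.636, 95% interval -0.59 to 0.23). Without replicate 1 the sign turned and the difference was 0.064, so the negative mean rests on that pair.

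E2f2, which acts with E2F1 and E2F3 in proliferating cells, ranged from -0.26 to 0.15 in vector control cells and from -0.33 to 0.05 in caNFATc1 cells. The E2f2 pairs differed by -0.07, -0.20 and -0.04, with a mean of -0.10 ± 0.07 (SE, n = 3 pairs, limma adjusted p = 0.482), and the interval of -0.27 to 0.07 leaves room for changes of either sign. In both groups replicate 1 gave the lowest E2f2 value, as it did for E2f1. E2f3 encodes an activator with a long and a short form made from separate promoters, and it was the only member with 2 rows. Its mean over both rows differed by 0.09, -0.03 and -0.30 in the 3 pairs and by -0.08 ± 0.09 overall (SE, n = 3 pairs, limma adjusted p = 0.721, 95% interval -0.31 to 0.15). The separate E2f3 rows differed by -0.00 ± 0.13 and -0.16 ± 0.07 (SE, limma adjusted p over all rows 0.998 and 0.251), and no source used here says which form each row reads.

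The canonical repressors were negative in every pair. E2f5, a partner of p130, read 0.14, 0.35 and 0.09 in vector control replicates 1, 2 and 3 and -0.14, -0.09 and -0.25 in caNFATc1 replicates 1, 2 and 3. All 3 vector control arrays lay above all 3 caNFATc1 arrays, and the pairs differed by -0.28, -0.44 and -0.34. E2f5 fell by 0.35 ± 0.07 on the log2 scale (SE, n = 3 pairs, limma adjusted p = 0.0436 with the block and 0.191 without), which is 1.28-fold. With 2 pairs only the E2f5 call was lost each time (limma adjusted p = 0.0632, 0.188 and 0.117 without replicate 1, 2 or 3 of both groups), and it was lost with quantile normalisation (0.0730). The standard deviation of its pair differences, 0.08, was the smallest of the family.

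E2f4, an E2F without a nuclear localisation signal of its own that enters the nucleus with pocket proteins, read 0.13, 0.33 and 0.02 in vector control replicates 1, 2 and 3. In caNFATc1 replicates 1, 2 and 3 it read -0.46, -0.02 and -0.26, and the groups did not overlap. The highest caNFATc1 array and the lowest vector control array of E2f4 were close, at -0.02 and 0.02. The E2f4 pairs differed by -0.59, -0.35 and -0.28, and the mean of -0.40 ± 0.08 lay just beyond the threshold (SE, n = 3 pairs, limma adjusted p = 0.0519 with the block and 0.294 without, 95% interval for this gene alone -0.61 to -0.20). E2f4 passed in 3 of 12 alternatives. These were arrays centred on their medians, quantile normalisation and array weights (limma adjusted p = 0.0495, 0.0339 and 0.0389). It did not pass without replicate 1, 2 or 3 of both groups (limma adjusted p = 0.0918, 0.129 and 0.0577). Nor did it pass with the block as a random effect (0.117) or with no moderation of the variance (0.405).

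The atypical repressors had the largest mean differences of the family. E2f8 read 0.02, 0.61 and 0.15 in vector control replicates 1, 2 and 3 and -0.96, -0.53 and -0.02 in caNFATc1 replicates 1, 2 and 3. The groups did not overlap, although the highest caNFATc1 array and the lowest vector control array were close. The pairs differed by -0.98, -1.15 and -0.18, with a mean of -0.77 ± 0.19 (SE, n = 3 pairs, limma adjusted p = 0.0766 with the block and 0.317 without), which is 1.70-fold.

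E2f7, which shares with E2F8 a duplicated DNA-binding domain and most of its known targets, read 0.08, 0.51 and 0.09 in vector control replicates 1, 2 and 3. In caNFATc1 replicates 1, 2 and 3 it read -0.78, -0.35 and -0.08, again without overlap. The E2f7 pairs differed by -0.86, -0.86 and -0.18 and the mean was -0.63 ± 0.15 (SE, n = 3 pairs, limma adjusted p = 0.0698 with the block and 0.287 without). For both genes the third pair gave the smallest difference. Without replicate 3 of both groups, E2f7 and E2f8 differed by -0.86 and -1.06 and passed the test (limma adjusted p = 0.00421 and 0.00289). Without replicate 1 or 2 they did not pass, with adjusted p between 0.183 and 0.204.

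**Figure D2:**
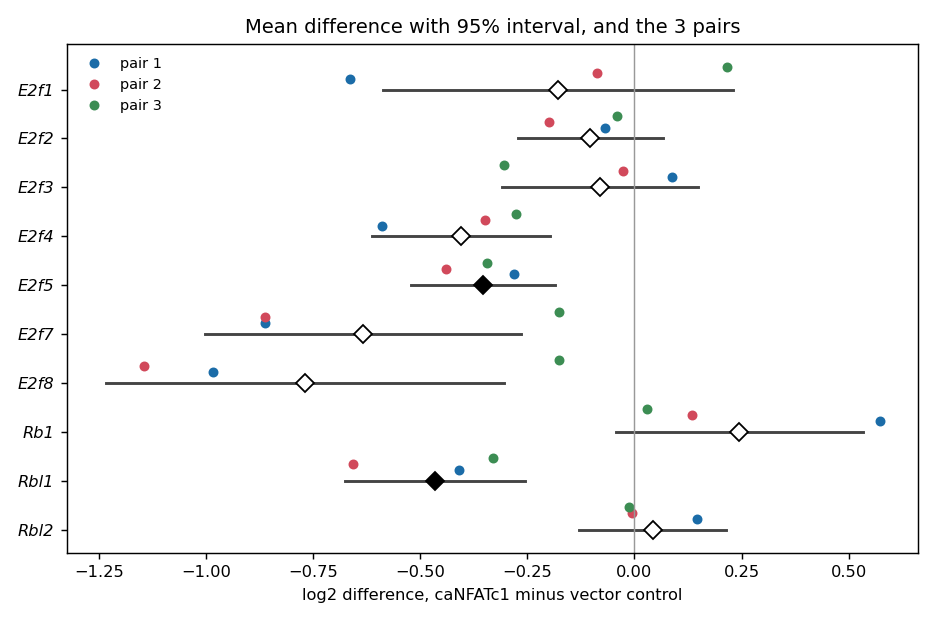
Log2 difference, caNFATc1 minus vector control, of each member as a diamond with its 95% interval from limma with the replicate block, not adjusted for the number of genes. Filled diamonds mark adjusted p under 0.05 (E2f5 and Rbl1), and coloured points are the 3 pairs, of which the third lies nearest to 0 for E2f7 and E2f8.

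Among the pocket protein genes, Rbl1 passed the test and Rb1 and Rbl2 did not. Rbl1, which encodes p107, the pocket protein of cycling cells, read -0.22, 0.60 and 0.38 in vector control replicates 1, 2 and 3 and -0.63, -0.05 and 0.05 in caNFATc1 replicates 1, 2 and 3. The groups overlapped, because replicate 1 was low in both, while each caNFATc1 array lay below the vector control array of its own number. The pairs differed by -0.41, -0.66 and -0.33. Rbl1 fell by 0.47 ± 0.08 on the log2 scale (SE, n = 3 pairs, limma adjusted p = 0.039 with the block and 0.561 without), which is 1.38-fold, so this call rests on the pairing. It was lost without replicate 1 or 2 of both groups and with quantile normalisation (limma adjusted p = 0.0789, 0.129 and 0.0754) and held without replicate 3 (0.0366).

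Rb1, the retinoblastoma gene, read -0.68, 0.01 and -0.01 in vector control replicates 1, 2 and 3 and -0.11, 0.15 and 0.02 in caNFATc1 replicates 1, 2 and 3. All 3 pairs were positive, at 0.57, 0.13 and 0.03, and the first holds the low vector control array. The mean of 0.24 ± 0.12 did not pass (SE, n = 3 pairs, limma adjusted p = 0.308, 95% interval -0.04 to 0.53), and without replicate 1 it was 0.08. Rbl2, which encodes p130, the pocket protein of resting cells, ranged from -0.10 to 0.13 in vector control cells and from -0.05 to 0.12 in caNFATc1 cells. Its difference was 0.04 ± 0.07 (SE, n = 3 pairs, limma adjusted p = 0.818), with pairs of 0.15, -0.01 and -0.01 and an interval of -0.13 to 0.21. Whether the members' differences differ from each other was not tested.

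The genes whose 6 array values were most like those of Rbl1 were Rgs12, Agpat2 and Pcyt1b, with Pearson correlations of 0.996, 0.995 and 0.995 over the 6 arrays. Arrays of the same number deviate together, so these are not 6 independent points and the correlations are a description. Of the 3 genes, Pcyt1b, an enzyme of phosphatidylcholine synthesis, also fell (-0.48 ± 0.07, SE, n = 3 pairs, limma adjusted p = 0.0278 with the block). Rgs12 and Agpat2 differed by -0.24 ± 0.07 and -0.16 ± 0.06 and did not pass (limma adjusted p = 0.110 and 0.234 with the block). The genes were picked on the arrays of both groups, so a difference of the same sign as that of Rbl1 is partly built in.

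The members with the E2F word included genes near 0 and genes well below it. Of the 4 members with the word, Rbl1 fell, E2f7 differed by -0.63, and E2f2 and E2f3 by -0.10 and -0.08. Of 484 tested genes with the word in their outermost window, 26 were called lower (5.37%) and 14 higher (2.89%), and their median difference was -0.03. Of 15128 tested genes without it, 2.38% were lower and 3.90% higher, and the median was -0.01. With the genes of the pathway lists left out, 18 of 458 genes with the word were lower (3.93%), against 2.28% of those without. The medians of these 458 genes in pairs 1, 2 and 3 were -0.0747, 0.0005 and 0.0019. For genes without the word they were -0.0537, 0.0279 and 0.0159. A higher share called lower was not particular to the E2F word. With listed genes kept, it was 3.74% with the CHR and 2.24% without. For the word CCAAT, also searched on both strands, it was 3.26% and 1.99%. These shares are a description with no test of their difference.

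**Figure D3:**
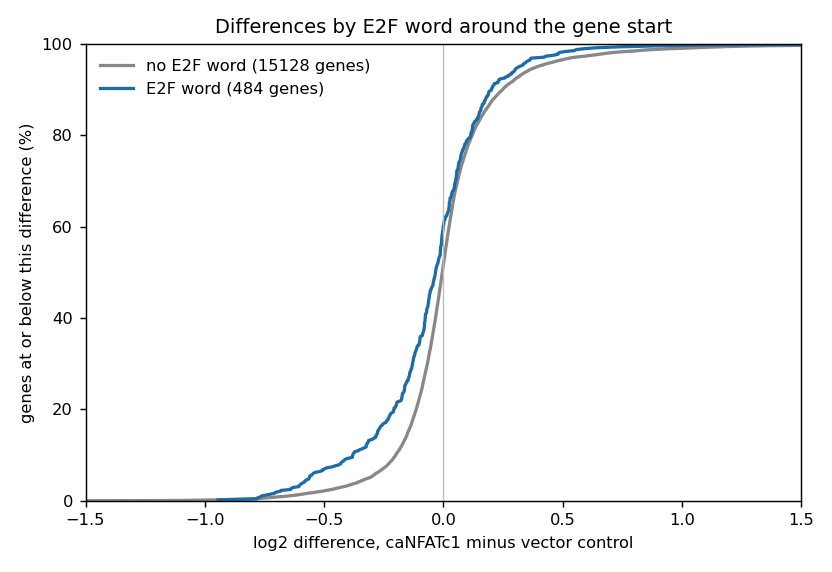
Cumulative share of genes, in percent, by log2 difference (caNFATc1 minus vector control) for 484 genes with an E2F word and 15128 without one between 250 bases before and 50 bases after the start. The curve of genes with the word lies above the other at negative differences.

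The other parts of the circuit were taken from lists of known partners, regulators and targets. The G1/S targets of E2F lay lowest with the G2/M genes. Of 46 measured G1/S target genes, 14 fell and none rose with the block, all 46 differences were negative with a median of -0.59, while limma without the block called 0, with 33 at an unadjusted p under 0.05. The ribonucleotide reductase gene Rrm1 fell by 0.68 ± 0.10 (SE, n = 3 pairs, limma adjusted p = 0.0234), Cdca7 by 0.78 ± 0.12 (0.0259), the replication factor gene Mcm10 by 0.84 ± 0.13 (0.028) and the origin licensing gene Cdc6 by 0.64 ± 0.10 (0.028). The median G1/S difference was -0.83, -0.75 and -0.24 in pairs 1, 2 and 3. Without replicate 3 of both groups the count was 39, and without replicate 1 or 2 it was 2 and 1.

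An E2F word was found in 17 of 38 G1/S target windows (44.7%), and the 17 genes with it and the 21 without it had median differences of -0.58 and -0.62. Of 19 measured MuvB-bound genes of G2/M, 10 fell, all 19 were negative and the median was -0.63, against 0 limma calls without the block, where 18 had an unadjusted p under 0.05. The spindle checkpoint kinase gene Bub1, the survivin gene Birc5, Cdca8 and the kinesin gene Kif23 fell by 0.88, 0.75, 0.64 and 0.84 (limma adjusted p = 0.028, 0.0293, 0.0303 and 0.0401 with the block). None of 16 G2/M windows held the E2F word, and 10 held the CHR (62.5%). The G2/M medians in pairs 1, 2 and 3 were -0.75, -0.83 and -0.27, so that the third pair was again the smallest, as for E2f7 and E2f8. Without replicate 3 of both groups 18 fell, and without replicate 1 or 2 none passed.

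Among MuvB parts and partners, 1 of 7 measured genes fell. This was Lin54, the DNA-binding subunit that recognises the CHR (-0.48 ± 0.09, SE, n = 3 pairs, limma adjusted p = 0.037 with the block and 0.110 without). The activating partners of MuvB, Mybl2 (B-MYB) and Foxm1, differed by -0.75 and -0.70 without reaching the threshold (0.0699 and 0.0618 with the block), and Lin52 differed by -0.15 (0.305). Without replicate 3 of both groups 3 of the 7 fell, and without replicate 1 or 2 none did. Of the DP proteins that pair with E2F1 to E2F5 on DNA, Tfdp1 differed by -0.32 and Tfdp2 by 0.16, and neither passed (limma adjusted p = 0.0852 and 0.256 with the block, with 1 at an unadjusted p under 0.05).

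Of 6 measured ubiquitin ligase parts that act on cell cycle proteins, 2 fell. Skp2, the F-box protein that marks the CDK inhibitor p27 for destruction, fell by 0.71 ± 0.09 (SE, n = 3 pairs, limma adjusted p = 0.0157 with the block and 0.189 without). Ccnf, which encodes cyclin F, fell by 0.74 ± 0.13 (0.0348 with the block and 0.312 without), while the APC activator gene Fzr1 and Cul1 differed by -0.15 and -0.05 without passing. Without replicate 1 or 2 of both groups 1 of these genes passed. Among 9 cyclins and CDKs that phosphorylate pocket proteins, limma with the block called 0, with 3 at an unadjusted p under 0.05. Ccne1, Ccna2 and Ccne2, which are also in the G1/S list, differed by -0.62, -0.57 and -0.51 (adjusted p = 0.0634, 0.0721 and 0.116), and Ccnd1 by -0.41 (0.267).

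The inhibitors of those kinases and the chromatin partners gave no calls. Of 6 measured CDK inhibitor genes, limma with the block called 0, with 1 at an unadjusted p under 0.05, and Cdkn2b, Cdkn1c, Cdkn2a and Cdkn1b differed by -0.24, 0.31, -0.16 and 0.08. Cdkn1a had no row of its own and was not analysed here. Of 11 co-repressors, 0 were called and 5 had an unadjusted p under 0.05, and the list's median was 0.09. Arid4a, which links pRB to the SIN3 complex, and Sin3b differed by 0.34 and 0.35 (limma adjusted p = 0.0528 and 0.0855 with the block), each with all caNFATc1 arrays above all vector control arrays, which was so for 9.64% of all genes. Rbbp7 and Kdm5a differed by -0.19 and 0.18.

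Of 10 genes of E2F6 and its PRC1.6 complex, a repressor that uses no pocket protein, limma with the block called 0, with 2 at an unadjusted p under 0.05. Cbx3, Rnf2, E2f6 and Pcgf6 differed by -0.35, 0.33, -0.21 and -0.17. Of 6 measured apoptosis genes known as E2F targets, 0 were called and 1 had an unadjusted p under 0.05, the median was 0.02, and Casp8, Trp73, Bcl2l11 and Pmaip1 differed by 0.45, 0.21, -0.05 and 0.04. The apoptosis list had no gene negative in all 3 pairs and none positive in all 3. Of the 46 G1/S genes 43 were negative in all 3 pairs, and so were 21.3% of all genes. The difference between these shares was not tested.

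**Figure D4:**
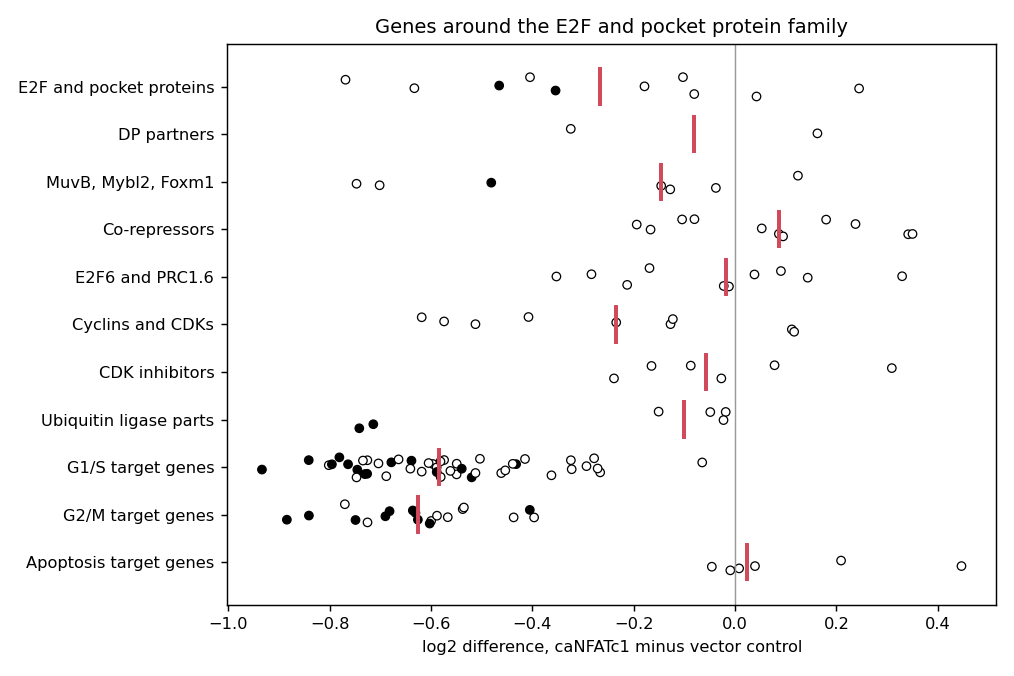
Log2 difference, caNFATc1 minus vector control, of every measured gene in the family and in 10 lists around it, with filled points for adjusted p under 0.05 (limma with the replicate block) and a red bar at each list's median. Every G1/S and G2/M gene lies below 0, while co-repressors, CDK inhibitors and apoptosis genes lie on both sides.

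Markers of cell types were measured beside these genes. Of 6 basal keratinocyte markers, Trp63 rose (0.42 ± 0.08, SE, n = 3 pairs, limma adjusted p = 0.0444 with the block) and the median was 0.05. Krt15 differed by -0.58 ± 0.18, with pairs of -0.58, -0.09 and -1.08, and did not pass (0.132), and Krt14 differed by -0.02. Of 5 measured markers of differentiating keratinocytes, Ivl fell by 1.24 ± 0.20 (0.03) and the median was -0.10. Fibroblast markers had a median of 0.28, with 5 of 6 positive, and Col3a1 rose by 1.20 ± 0.19 (0.0296). Pdgfra and Col1a1 differed by 0.83 and 0.48 and did not pass (limma adjusted p = 0.0778 and 0.384). Dcn, Col1a2 and Lum differed by 0.08, 0.05 and -0.01 (limma adjusted p from 0.753 to 0.948). The median of the 6 fibroblast markers was -0.05, 0.17 and 0.89 in pairs 1, 2 and 3. In pair 3 they ranged from 0.01 (Lum) to 1.67 (Col3a1). Limma with the block called none of the 5 melanocyte, 5 immune and 4 endothelial markers, with 0 at an unadjusted p under 0.05 and medians between -0.05 and -0.04. The part of these markers in the results for the E2F and pocket protein genes was not tested.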

How the data were processed

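The authors deposited log2 values of 28815 rows for 6 arrays. Per the submitters' processing notes they used RMA (robust multi-array average) and build mm8. Software and filters were not given in the sources used here. Every row's median was 0 within 5e-07, so levels and dim rows cannot be judged, and base 2 was assumed for the logarithm, as RMA gives it. The number of arrays limits the precision. Rows with 1 symbol (21780) were averaged to 19935 genes.

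Differences were fitted with limma 3.58.1 (R 4.3.3; lmFit, eBayes, 2-sided) with the replicate number as a block, since the members' rule pairs arrays by the number in the titles. The correlation check is given with the results. With the block the p-values measure the spread of the pair differences among these samples alone, moderated over all genes. Without the block they measure the spread within each group. Either spread may be technical. All 10 members, and up to 4 genes of each list with the lowest p, were named. Markers were named after their values were seen. Members, lists and sequence words were chosen from textbook knowledge with earlier results of these data known. Cdkn1a was not analysed here.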

Additional observations from a re-analysis of the deposited data

How the results depend on the processing

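Without the replicate block, limma called 0 members lower in place of 2, and 41 genes higher and 2 lower in place of 744 and 475. With the block as a random effect it called 0 members, 314 genes higher and 119 lower. With no moderation of the variance it called 0 members, 1 gene higher and 0 lower. With quantile normalisation it called 1 member, E2f4, while Rbl1 and E2f5 did not pass. Without replicate 1 or 2 of both groups 0 members were lower, and without replicate 3 there were 3 (Rbl1, E2f7 and E2f8). Without replicate 1, 2 or 3 of both groups, 202 to 481 genes were lower and 509 to 605 higher. In the same settings E2f1 ranged from -0.38 to 0.064, E2f3 from -0.16 to 0.031 and Rbl2 from -0.0099 to 0.070, the only members whose sign turned in any alternative. Rbl1 passed in 6 of 12 alternatives and E2f5 in 5 of 12. Both genes have 1 row, so some of these settings left their values unchanged. These were the row with the highest mean, every row on its own and rows of several symbols added. The other passes of both were with arrays centred on their medians and with array weights, and that of Rbl1 also without replicate 3. The count of G1/S genes that fell was 3 with the random block and 0 with no moderation. None of the 6 ubiquitin ligase parts passed in either setting, nor without the block, and Lin54 did not pass with no moderation. The count of G2/M genes was 0 with the random block and with no moderation, 1 with quantile normalisation and 5 with rows of several symbols added. The cause of these changes was not tested. Leaving out 1 array leaves its partner with no contrast and equals leaving out the pair. The brightness of rows is unknown, so no filter on dim rows was possible.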
